A study of Saccharomyces cerevisiae with 6 samples.

Results

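The vacuolar proton pump and the vacuolar proteases of budding yeast were followed in cells grown with myriocin, a fungal compound that blocks serine palmitoyltransferase and with it the start of sphingolipid synthesis. The set held 31 genes out of 5420 read by a probe set of their own: 15 encode subunits of the vacuolar H+-ATPase (V-ATPase), 5 its assembly factors, 2 the RAVE complex, 7 vacuolar proteases and 2 protease inhibitors. They were taken by name for their function and matched on the gene symbols of the authors' fold change table, where 5 of them stand under older symbols (VMA1 as TFP1, VMA3 as CUP5, VMA11 as TFP3, VMA16 as PPA1 and APE1 as LAP4). Each of the 31 was read by 1 probe set, and none lay at background.

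The myriocin group was 3 cultures of wild-type strain DBY746 grown with 300 ng/ml myriocin, and the control group 3 cultures of the same strain given vehicle alone, all called biological replicates in the design text. Both groups contained 0.3% ethanol, grew at 30 °C in SDC medium at pH 6 from an A600 of 0.002 to 2, and gave 1 single-colour array per culture. All comparisons are at that single density and dose, and in a whole culture a smaller share of expressing cells cannot be told apart from less RNA per cell.

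The V-ATPase is a rotary pump built from a peripheral V1 sector, which hydrolyses ATP, and a membrane-bound Vo sector, which carries protons into the lumen. Its acidification of the vacuole drives ion and amino acid uptake and lets the vacuolar proteases mature and work, beginning with proteinase A (Pep4), which activates other zymogens. In yeast the V1 and Vo sectors come apart when glucose runs out and are put back together with the help of RAVE, and sphingolipids with very-long-chain fatty acids are known to be needed for an active pump.

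Array medians over all genes lay between 11.06 and 11.08 on the log2 scale, and 95.4% to 95.7% of genes lay above the highest negative control, 2.07. Over all genes 25.5% were higher and 28.8% lower with myriocin by limma (adjusted p under 0.05), 54.4% in either direction, and the median gene changed by -0.03 on the log2 scale. Spiked hybridisation controls read lower on the myriocin arrays in all 26 probe sets above background. Scaling the arrays to these controls adds 0.32 to every log2 fold change, so that 39.9% of genes are then called higher and 12.0% lower. Directions below are therefore relative to the other genes on the array, and the value on the control-based scale is given where it ends a call or turns a sign. Ribosomal RNA probe sets were lower in 16 of 17 cases too (median log2 difference -1.61), and the part of either in the results below was not tested.

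Transcripts of the pump's subunits moved little, while those of the proteases spread more widely than these around a similar middle. The 15 subunit genes had log2 fold changes between -0.36 and 0.41 with a median of -0.03, and 2 rose and 3 fell by limma, where 25.5% and 28.8% of all genes did. The 7 protease genes lay between -0.79 and 1.59 with a median of 0.02, and 3 rose and 2 fell. The medians differed by 0.05, and by -0.00295 without myriocin replicate 3. The SD of the log2 fold changes was 0.76 over the proteases and 0.21 over the subunits, compared with 1.03 over all genes. The middle 50% of the proteases spanned -0.13 to 0.58, and that of all genes -0.39 to 0.35. These values describe the genes and were not tested. On the control-based scale 5 subunit genes were higher and 0 lower, and 3 proteases higher and 0 lower. That scale had 39.9% of all genes higher and 12.0% lower. Of all 31 genes 9 rose and 9 fell, against 12 higher and 1 lower on the control-based scale. The groups lay apart, with no overlap between arrays, for 11 higher and 14 lower genes, where 66.4% of all genes lay apart. In 14 of the 31 the log2 fold change was above 0, near the 46.4% of all genes, 4 reached 1 or more (9.04% of all genes) and 0 reached -1 or less (7.66%). Bright genes as a whole varied less: the middle 50% of the 980 genes with a mean above 13, among them 14 of the 15 subunit genes and 22 of the 31 genes described here, spanned -0.26 to 0.18, compared with -0.43 to 0.39 for the dimmer 4440. Whether signals near the top of the array's range are compressed was not tested.

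**Figure D1:**
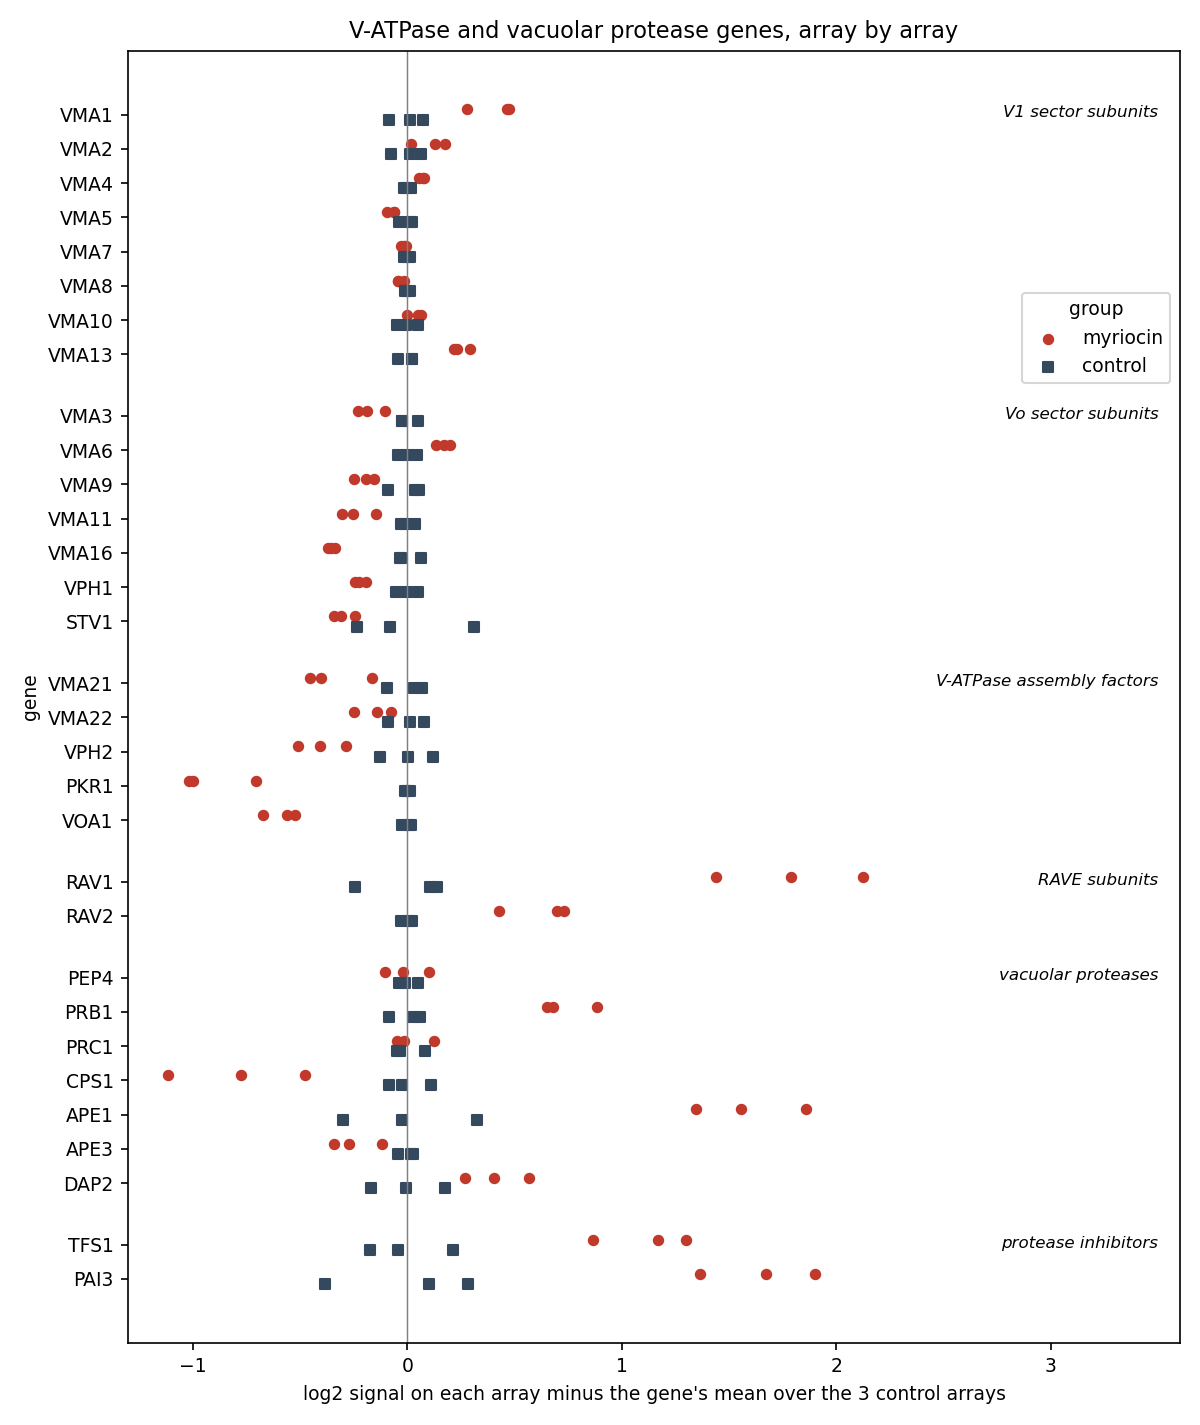
Log2 signal of each of the 31 genes on every array, as the difference from that gene's mean over the 3 control arrays (x axis, log2 units), with genes down the page by role. Circles are the 3 myriocin arrays and squares the 3 control arrays. Subunit genes lie within 0.41 of 0 on average, while RAV1, APE1, TFS1 and PAI3 average more than 1 above control. All myriocin points are above every control point for 11 genes, 4 of them subunit genes. They are below every control point for 14 genes, 8 of them subunit genes. Over all genes 30.6% lay apart higher and 35.8% lower.

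Within the pump, V1 and Vo genes leaned apart. The 8 V1 genes had a median log2 fold change of 0.05, with 2 higher and 0 lower by limma. The 7 Vo genes had one of -0.22, with 0 higher and 3 lower, where 25.5% of all genes were higher and 28.8% lower. Both medians lay within the middle 50% of the 980 genes with a mean above 13, -0.26 to 0.18 (median -0.09). On the control-based scale the V1 median was 0.37, with 4 higher and 0 lower, and the Vo median turned to 0.09, with 1 higher and 0 lower. Of all genes 39.9% were higher and 12.0% lower on that scale. The gap between the sectors' medians was -0.27, and between -0.30 and -0.25 when any 1 array was left out. This gap was taken after the values were seen and is a description without a test. It cannot move when an array is rescaled by a constant.

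VMA1 encodes the catalytic A subunit of V1. Its log2 signal was 14.48, 14.28 and 14.47 with myriocin, against 13.92, 14.02 and 14.08 in control cells. Each myriocin array lay above every control array, and the gene rose by 0.41 (SE 0.09, n = 3 per group, limma adjusted p = 0.00876), or 1.33-fold. VMA13, the H subunit that helps to regulate ATP hydrolysis, read 13.58, 13.57 and 13.65 with myriocin, against 13.31, 13.37 and 13.38 in control cells. The groups were again apart, and VMA13 rose by 0.25 (SE 0.06, limma adjusted p = 0.0194), a call lost without control replicate 1 (limma adjusted p = 0.0655) or control replicate 2 (0.0578).

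The other V1 genes did not pass. VMA2, the nucleotide-binding B subunit, had a log2 fold change of 0.11, and VMA4 and VMA10, whose E and G proteins form the peripheral stalks, had 0.07 and 0.04. VMA7 and VMA8, the F and D subunits of the central rotor, had -0.02 and -0.03, and VMA5, the C subunit that joins V1 to Vo, had -0.07. The groups were still apart for VMA4, VMA5 and VMA8, since replicates of these genes differed by SDs of only 0.01 to 0.03. On the control-based scale VMA2 and VMA4 were called higher (limma adjusted p = 0.0202 and 0.0372), and the signs of VMA5, VMA7 and VMA8 turned (0.24, 0.30 and 0.28).

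In the Vo sector the groups did not overlap for any of the 7 genes, 6 of which lay lower with myriocin, where 35.8% of all genes lay lower without overlap and 30.6% higher. VMA16, which encodes the c″ subunit of the proteolipid ring, read 13.97, 13.98 and 14.00 with myriocin, against 14.31, 14.40 and 14.30 in control cells. It fell by 0.36 (SE 0.07, limma adjusted p = 0.00511), or -0.04 on the control-based scale (limma adjusted p = 0.805). VMA16 kept its call without any 1 array.

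The ring subunit c′ gene VMA11 read 13.51, 13.57 and 13.67 with myriocin, against 13.79, 13.86 and 13.81 in control cells. VPH1, the a subunit isoform of the vacuole, read 13.88, 13.90 and 13.94 with myriocin, against 14.18, 14.08 and 14.13 in control cells. Both fell, by 0.23 (SE 0.07, limma adjusted p = 0.0329) for VMA11 and by 0.22 (SE 0.07, limma adjusted p = 0.0293) for VPH1, but both signs turned on the control-based scale (0.08 and 0.09). With samples paired by replicate number neither passed (limma adjusted p = 0.0576 for VMA11 and 0.0604 for VPH1). Without single arrays VMA11 lost its call in 5 of 6 cases, all but that of myriocin replicate 3, and so did VPH1.

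VMA3 and VMA9, for subunits c and e, had log2 fold changes of -0.17 and -0.20 (limma adjusted p = 0.0775 and 0.0601), both turning sign on the control-based scale (0.14 and 0.12). VMA6, whose d subunit sits on top of the ring, stood alone on the other side among Vo genes with 0.17 (limma adjusted p = 0.0679), and was called higher on the control-based scale (limma adjusted p = 0.0149). VMA3, VMA6 and VMA9 thus lay close to the threshold, and passed with an intensity trend and robust variance (limma adjusted p = 0.024, 0.0427 and 0.0317).

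STV1 encodes the other a subunit isoform, which resides in the Golgi and endosomes. It read 12.36, 12.46 and 12.40 with myriocin, against 12.63, 12.47 and 13.02 in control cells. Control replicate 3 stood well above the rest, and the log2 fold change of -0.30 did not pass (SE 0.15, limma adjusted p = 0.128) and turned to 0.02 on the control-based scale. The change of VPH1 minus that of STV1 was 0.08 (SE 0.16, 95% interval -0.37 to 0.52, two-sided exact permutation p = 1, where 0.1 is the smallest that 3 against 3 arrays allow), and it turned to -0.08 without control replicate 3. The permutation test could therefore not pass the threshold at any size of difference.

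**Figure D2:**
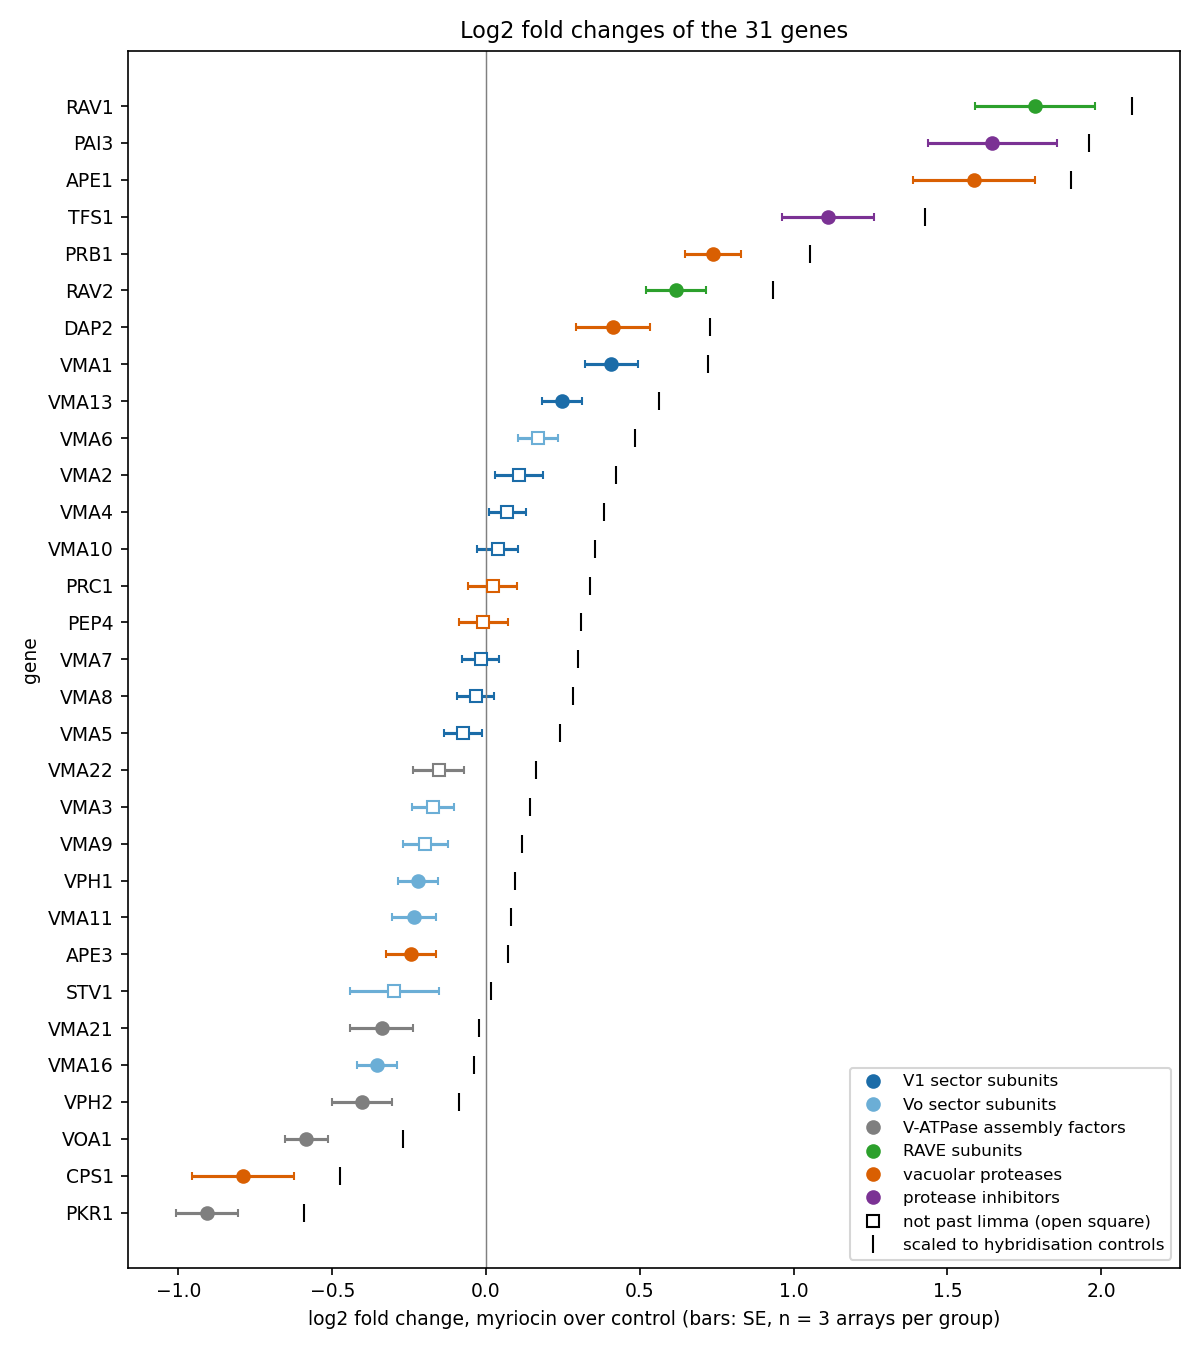
Log2 fold change of each of the 31 genes, myriocin over control (x axis, log2 units), sorted, with standard errors over 3 arrays per group. Filled circles passed limma's test, open squares did not, and vertical ticks mark the value after scaling to the hybridisation controls. Among genes that were called lower, only PKR1, VOA1 and CPS1 lie beyond -0.5, while RAV1, PAI3, APE1 and TFS1 lie above 1.

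The assembly factors work in the endoplasmic reticulum to build the Vo sector. Of 5 genes 4 fell and none rose by limma, with a median log2 fold change of -0.40, or -0.09 with 1 lower on the control-based scale. Of all genes 28.8% fell and 25.5% rose, and 12.0% were lower on the control-based scale. PKR1, an endoplasmic reticulum protein needed for efficient assembly of Vo, read 12.96, 13.27 and 12.98 with myriocin, against 13.98, 13.99 and 13.97 in control cells. It fell by 0.91 (SE 0.10, limma adjusted p = 0.000834), was 1.88-fold lower, and was called lower on the control-based scale as well (log2 fold change -0.59, limma adjusted p = 0.00853).

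VOA1, which encodes a partner of Vma21 in Vo assembly, read 13.71, 13.86 and 13.83 with myriocin, against 14.40, 14.39 and 14.36 in control cells. It fell by 0.58 (SE 0.07, limma adjusted p = 0.00107), or -0.27 on the control-based scale (limma adjusted p = 0.113). VMA21 itself, which shepherds Vo out of the endoplasmic reticulum, read 13.28, 13.04 and 12.99 with myriocin, against 13.35, 13.48 and 13.51 in control cells. The groups were apart and VMA21 fell by 0.34 (SE 0.10, limma adjusted p = 0.0303), but the call was lost with the replicates paired (limma adjusted p = 0.0707), without any 1 of control replicates 2 and 3 and myriocin replicates 2 and 3 (0.0826 to 0.0916), and on the control-based scale (log2 fold change -0.02).

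VOA1 and VMA21 are next to each other on chromosome VII in the RefSeq annotation, with their 3′ ends facing. Besides them, VMA16 and DAP2 on chromosome VIII have 1 gene between them, and their log2 fold changes were of opposite sign (-0.36 and 0.41). No other pair among the 31 genes lay within 1 gene of each other.

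VPH2 and VMA22 encode partners in a complex that stabilises the a subunit in the endoplasmic reticulum. VPH2 read 10.87, 10.75 and 10.65 with myriocin, against 11.03, 11.28 and 11.16 in control cells, and fell by 0.40 (SE 0.10, limma adjusted p = 0.0144), or -0.09 on the control-based scale (limma adjusted p = 0.637). Without control replicate 2 it just missed the threshold (limma adjusted p = 0.0523). VMA22 had a log2 fold change of -0.15, or 0.16 on the control-based scale, and overlapping groups.

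The RAVE genes RAV1 and RAV2 went the other way. RAV1, the scaffold of the complex that rejoins V1 to Vo, read 5.88, 5.53 and 6.22 with myriocin, against 4.20, 4.23 and 3.85 in control cells. All 6 values are low for this array though above the negative controls, and every myriocin array exceeded every control array. RAV1 rose by 1.78 (SE 0.20, limma adjusted p = 0.000825), or 3.45-fold. This was the largest of the 31 changes in the fit as reported, but PAI3 was higher than RAV1 with quantile normalisation (1.62 and 1.59), and without control replicate 3 or myriocin replicate 3. APE1 also exceeded RAV1 with quantile normalisation (1.596 and 1.594). Without control replicate 3 APE1 was the highest, at 1.75, followed by PAI3 at 1.70 and RAV1 at 1.66. RAV2, which encodes another subunit of RAVE, read 11.76, 11.48 and 11.79 with myriocin, against 11.07, 11.03 and 11.08 in control cells. It rose by 0.62 (SE 0.10, limma adjusted p = 0.00296). Both rises were called under every alternative in which the gene was tested, apart from RAV1 where the dimmest 25% of genes were left out and with them RAV1.

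Other genes known to act on the pump's assembly were taken from a separate list. SKP1, the third RAVE subunit, which also serves ubiquitin ligases, changed too little to pass, at -0.23 (limma adjusted p = 0.136), or 0.09 on the control-based scale. OXR1, which in yeast promotes disassembly of the V-ATPase, rose by 0.91 (SE 0.11, limma adjusted p = 0.00111). RTC5, described with OXR1 in that role, had 0.17 (limma adjusted p = 0.157), and passed on the control-based scale (0.48, limma adjusted p = 0.0179). RAV1 and RAV2, of the reassembly complex, and the disassembly gene OXR1 were thus all higher with myriocin.

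Among the 7 proteases APE1, PRB1 and DAP2 rose and CPS1 and APE3 fell. APE1, the aminopeptidase that reaches the vacuole from the cytoplasm by selective autophagy, read 13.13, 12.92 and 13.43 with myriocin, against 11.55, 11.27 and 11.90 in control cells. It rose by 1.59 (SE 0.20, limma adjusted p = 0.00123), with no overlap between the groups. PRB1, the subtilisin-like proteinase B that matures several vacuolar enzymes, read 13.04, 13.02 and 13.25 with myriocin, against 12.42, 12.28 and 12.39 in control cells. PRB1 rose by 0.74 (SE 0.09, limma adjusted p = 0.0012), or 1.67-fold.

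DAP2 encodes dipeptidyl aminopeptidase B, a protein of the vacuolar membrane. It read 12.22, 12.09 and 12.38 with myriocin, against 11.81, 11.64 and 11.99 in control cells. The groups were apart by a narrow margin, between myriocin replicate 2 and control replicate 3. DAP2 rose by 0.41 (SE 0.12, limma adjusted p = 0.0286), and was called with the replicates paired (limma adjusted p = 0.0101). The call was lost when control replicate 1 or 2, or myriocin replicate 1 or 3, was left out (limma adjusted p between 0.0685 and 0.0884).

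CPS1, carboxypeptidase S, which arrives as a membrane protein sorted into multivesicular bodies, went down. Its log2 signal was 12.65, 13 and 13.29 with myriocin, against 13.75, 13.68 and 13.88 in control cells. The myriocin arrays were the more spread and all lay below control. CPS1 fell by 0.79 (SE 0.17, limma adjusted p = 0.00848), or 1.73-fold, and by less on the control-based scale, where it missed the threshold (log2 fold change -0.47, limma adjusted p = 0.0547).

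APE3, aminopeptidase Y of the vacuolar lumen, read 14.70, 14.63 and 14.85 with myriocin, against 14.99, 15 and 14.93 in control cells. The groups were apart. It fell by 0.24 (SE 0.08, limma adjusted p = 0.0437), turning to 0.07 on the control-based scale, and lost its call with the replicates paired (limma adjusted p = 0.0835) and without any 1 array other than myriocin replicate 3 (0.0705 to 0.125).

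PEP4 and PRC1, the genes of proteinase A and carboxypeptidase Y, sat close to control. PEP4 read 14.80, 14.88 and 15 with myriocin, against 14.95, 14.89 and 14.86 in control cells, and had a log2 fold change of -0.01 (SE 0.08, limma adjusted p = 0.935). PRC1 read 14.47, 14.49 and 14.64 with myriocin, against 14.59, 14.46 and 14.48 in control cells, and had 0.02 (SE 0.08, limma adjusted p = 0.839). The groups overlapped for both, and on the control-based scale neither passed (0.31 and 0.34, limma adjusted p = 0.0763 and 0.0598).

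The genes of the protease inhibitors rose. PAI3 encodes the cytoplasmic inhibitor of proteinase A and TFS1 that of carboxypeptidase Y. PAI3 read 11.44, 10.90 and 11.21 with myriocin, against 9.82, 9.15 and 9.64 in control cells, and rose by 1.65 (SE 0.21, limma adjusted p = 0.00135), or 3.13-fold. TFS1 read 14.20, 13.90 and 14.33 with myriocin, against 12.99, 12.86 and 13.24 in control cells, and rose by 1.11 (SE 0.15, limma adjusted p = 0.00156), or 2.16-fold. Both genes had their lowest value of each group on replicate 2, and both were called under every alternative run.

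Set beside their target proteases, the inhibitor genes differed in a way that no rescaling of an array by a constant can alter. These pairs were chosen after the values were seen and are given without a test. The log2 fold change of PAI3 exceeded that of PEP4 by 1.65 (SE 0.26), and by 1.47 to 1.79 without any 1 array. That of TFS1 exceeded that of PRC1 by 1.09 (SE 0.16). For PBI2, the inhibitor of proteinase B, the order was the opposite: PBI2 rose by 0.33 (limma adjusted p = 0.0206) and PRB1 by 0.74, a difference of -0.41 (SE 0.08).

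**Figure D3:**
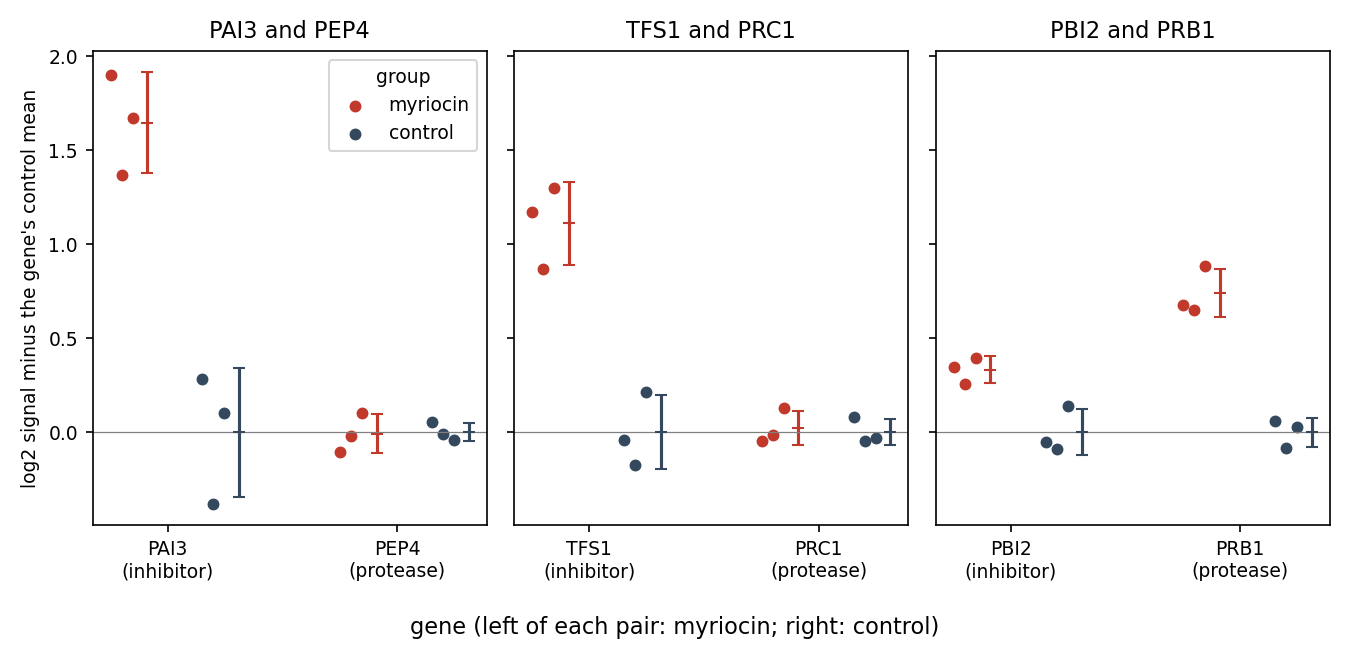
Log2 signal of each inhibitor gene and its target protease gene on every array, as the difference from that gene's mean over the 3 control arrays (y axis, log2 units), with myriocin left of control and bars for the mean and SD of 3 arrays. PAI3 and TFS1 are raised beside level PEP4 and PRC1, and PBI2 is raised less than PRB1.

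The wider vacuole was read from lists of other genes, whose members were named by function. Their counts stand beside 25.5% of all genes higher and 28.8% lower, or 39.9% and 12.0% on the control-based scale. As counts over all genes 1384 were higher and 1562 lower, and 1184 and 1354 by the equal-variance test. With any 1 array left out, 1101 to 1274 were higher and 1176 to 1401 lower. Of 9 measured genes for other vacuolar hydrolases and inhibitors 5 rose and 1 fell (median 0.33), or 7 and 1 on the control-based scale. With any 1 of control replicates 1 and 2 and myriocin replicates 1 and 3 left out, 2 were higher, and by the equal-variance test 3. AMS1, the alpha-mannosidase that shares the route of APE1, rose by 2.04 (SE 0.32, limma adjusted p = 0.00267), the acid trehalase gene ATH1 by 1.02 and the ribonuclease gene RNY1 by 0.51. PFF1, for a protease of the vacuolar membrane, fell by 1.09 (SE 0.09, limma adjusted p = 0.000311). The lipase gene ATG15 lay at background on all 6 arrays and has no fold.

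Among the lists of other genes, delivery of aminopeptidase 1 from the cytoplasm had the highest median, 0.52. Of its 7 genes 5 were higher and 1 lower, where 25.5% and 28.8% of all genes were. By the equal-variance test 3 were higher, as also without control replicate 1, control replicate 2 or myriocin replicate 1. With the dimmest 25% of genes left out, a filter that takes genes out of the test, 2 were higher. ATG34, ATG11 and ATG23 had low control means (7.42, 6.81 and 6.16), compared with 11.27 for ATG20 and 11.32 for ATG19. ATG34, the receptor for alpha-mannosidase, rose by 3.24 (SE 0.35, limma adjusted p = 0.000772), ATG11, the scaffold of selective autophagy, by 2.28 (SE 0.20, limma adjusted p = 0.000425) and the sorting nexin gene ATG20 by 0.80. ATG19, the receptor of Ape1, rose by 0.52 (SE 0.14, limma adjusted p = 0.0202). ATG27 fell by 0.57, or -0.25 on the control-based scale, where it missed the threshold (limma adjusted p = 0.123). In the fit as reported, the cargo genes APE1 and AMS1 thus rose together with genes of both their receptors, of which ATG19 was named after its value was seen.

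Sorting through the late endosome is the route on which carboxypeptidase Y depends. Of all genes 25.5% rose and 28.8% fell, or 39.9% and 12.0% on the control-based scale. Of 9 genes on this route 4 rose and 2 fell (median -0.03), or 4 and 1 on the control-based scale (median 0.28). Without control replicate 2 or myriocin replicate 1, 2 were higher and 1 lower, and without control replicate 3 or myriocin replicate 3, 1 was lower. VPS8 rose by 1.03, the syntaxin gene PEP12 by 0.86 and the Rab gene VPS21 by 0.30. MRL1 fell by 0.88 and PEP7 by 0.54, the second missing the threshold on the control-based scale (-0.22, limma adjusted p = 0.316). PEP1, the carboxypeptidase Y receptor also called Vps10, had -0.09 (limma adjusted p = 0.324), or 0.23 on the control-based scale, next to the 0.02 of its cargo PRC1. Of 14 vacuole fusion genes 4 rose and 4 fell (median 0.01), near the shares of all genes, but 7 were higher and 1 lower on the control-based scale (median 0.32). Without control replicate 2 or 3 or myriocin replicate 1, 1 of them was higher, and without myriocin replicate 3, 2 were. Without control replicate 2, 2 were lower. The HOPS genes VPS41 and VAM6 rose by 1.15 and 0.31 and MON1 by 0.36. The SNARE genes VAM3 and VAM7 fell by 0.70 and 0.55 and the Rab gene YPT7 by 0.42, and of these VAM3 alone was called lower on the control-based scale. Neither HOPS nor SNARE genes moved as one. The HOPS gene VPS33 fell by 0.28 (turning to 0.04 on the control-based scale) and the SNARE gene VTI1 rose by 0.25. In retromer, which returns receptors to the Golgi, 3 of 5 genes were higher and 0 lower on the control-based scale. On the scale as deposited 1 was higher and 1 lower, as VPS17 rose by 0.94 and VPS29 fell by 0.40 (-0.08 on the control-based scale, limma adjusted p = 0.676). The retromer list had 0 lower without control replicate 2, control replicate 3 or myriocin replicate 1. In the AP-3 adaptor 1 of 4 genes, APS3, fell by 0.31 (turning to 0.01 on the control-based scale).

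Among transporters that use the proton gradient or share the vacuolar membrane more genes fell than rose. Of all genes 28.8% fell and 25.5% rose, or 12.0% and 39.9% on the control-based scale. Of 19 measured genes for ions, metals and polyphosphate 11 fell and 1 rose (median -0.41), or 4 fell and 3 rose on the control-based scale (median -0.10). With the replicates paired 8 were lower. ZRT3, which releases zinc from the vacuole, fell by 1.17 (SE 0.07, limma adjusted p = 0.000136), the zinc importer gene ZRC1 by 0.89 and the glutathione-conjugate pump gene YCF1 by 0.74, and these 3 were called lower on that scale too. PMC1, the calcium ATPase of the vacuole, rose by 0.30 (limma adjusted p = 0.0475), but the list had 0 higher genes without any 1 array other than control replicate 3. Of 13 measured genes for amino acid transport 5 fell and 1 rose (median -0.07), or 4 fell and 3 rose on the control-based scale (median 0.24). With the replicates paired 2 rose, as also without control replicate 1. AVT2 fell by 2.24 (SE 0.30) from a low signal, the cystine transporter gene ERS1 by 1.32 (SE 0.08) and YPQ2 by 0.77, while RTC2 rose by 1.20 (SE 0.27, limma adjusted p = 0.0109).

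**Figure D4:**
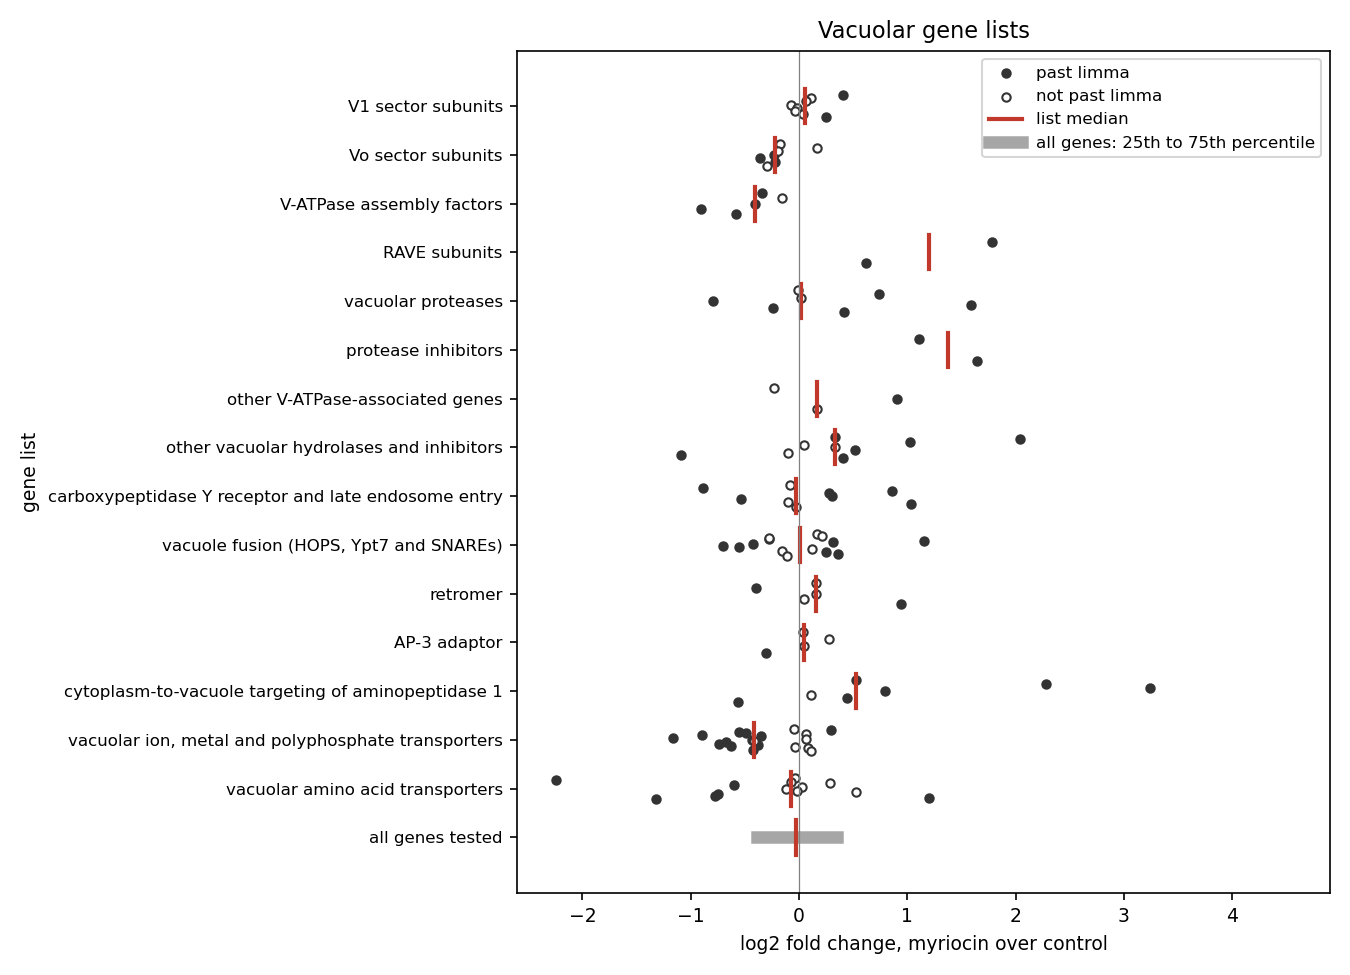
Log2 fold change of every measured gene, myriocin over control (x axis, log2 units), by gene list down the page. Filled points passed limma's test, red lines are list medians, and the grey bar spans the middle 50% of all 5420 genes, -0.39 to 0.35. The subunit genes sit within or close to that bar, and the RAVE genes RAV1 and RAV2 and the inhibitor genes PAI3 and TFS1 lie outside it. So do the assembly genes PKR1, VOA1 and VPH2 and the protease genes APE1, PRB1, DAP2 and CPS1.

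Relatives of the 31 genes, added after the values were seen, did not follow them in every case. YSP3, a subtilisin-like relative of PRB1, rose by 0.99 (SE 0.11, limma adjusted p = 0.000801), as PRB1 did. STE13, the Golgi relative of DAP2, fell by 0.44 (-0.12 on the control-based scale, limma adjusted p = 0.485), where DAP2 rose. YLR179C, similar to TFS1, fell by 0.46 (-0.14 on that scale, limma adjusted p = 0.407), where TFS1 rose.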

How the data were processed

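RNA from 6 cultures was labelled with biotin and hybridised to single-colour arrays, per the labels' protocols. The authors deposited normalised log2 signals for each probe set. The submitters' processing notes name Partek, with no version, and how probes were summarised is not stated in the sources used. The log2 scale was checked against the ratio column of the authors' deposited table, to within 8.48e-05. That table also holds the authors' p-value per probe set and a signed fold score, per the file headers.

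Of 5900 probe sets 184 are controls. The others were named from the platform annotation, updated through RefSeq, or from the authors' fold change table (24). Probe sets naming several genes (79) and 192 others were left out. Of these, 104 carry a name only in the authors' list of probe sets under p 0.05, and using those names would have favoured changed genes. The brightest probe set stood for each of 24 genes with more than 1. No array build is named, so no coordinates are given, and no sequences were used here. Background is the highest of 50 negative controls.

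The groups were set against each other with limma 3.58.1 (R 4.3.3), using two-sided tests from lmFit and eBayes without a filter, and p-values adjusted by Benjamini-Hochberg over all 5420 genes. The 31 genes and the lists were chosen with earlier results of these data known. All 31 are named, and other lists name up to 3 highest and 3 lowest called genes. PBI2, SKP1, RTC5, ATG15, ATG19 and PEP1 were added after their values were seen, for their tie to one of the 31 or their background signal. VPS33 and VTI1 were also added then, as the other called vacuole fusion genes. The main fit left the samples unpaired. Deviations from group means correlated at 0.169, 0.233 and 0.175 between equal replicate numbers, each above 0.1. A fit that pairs samples by number was therefore run as an alternative. Such pairing was read from these same data, and no label states it. Whether replicates came from separate starter cultures is not stated, and p-values measure the spread between these samples. The number of arrays limits the precision. Alternatives were other array scalings, a filter on dim genes, a floor at background, probe set means, another variance model, the replicate block, each array left out, other thresholds and an equal-variance test.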

Additional observations from a re-analysis of the deposited data

How the results depend on the processing

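Calls of single genes among the 31 held for all of them with equal array medians, with probe set means and with the names from the authors' list added, the last chosen after seeing the data. Leaving out the dimmest 25% of genes removed RAV1, so that 1 in place of 2 assembly and RAVE genes was higher. Scaling to the hybridisation controls gave 2164 genes higher and 651 lower, 5 subunit genes higher and 0 lower, 1 assembly or RAVE gene lower and 0 proteases lower. Medians were then 0.28 for subunits, turned from -0.03, and 0.34 for proteases, and VMA11, VPH1 and APE3 turned to 0.0807, 0.0944 and 0.0723. Quantile normalisation gave 5 subunit genes and 1 protease gene lower, a subunit median of -0.0878 and a gap between Vo and V1 medians of -0.33. Over all genes 1327 were then higher and 1645 lower. With the replicate block 1 subunit gene and 1 protease gene were lower, and the calls of VMA11, VPH1, VMA21 and APE3 were lost but no other. Over all genes 1374 were higher and 1471 lower with that block. An intensity trend with robust variance, and likewise values floored at background, gave 5 subunit genes lower. Over all genes 1409 were higher and 1653 lower with the trend, and 1378 and 1594 with the floor. By the equal-variance test 4 subunit genes were higher and 5 lower, and 1 protease gene was lower. At an adjusted p under 0.01, 966 genes were higher and 966 lower. Then 1 subunit gene was higher and 1 lower, and 2 assembly genes and 1 protease gene were lower. Requiring a fold of 1.5 left 896 genes higher and 862 lower, 0 subunit genes in either direction, and 1 assembly gene and 1 protease gene lower. Without 1 array, 1 to 2 subunit genes were higher and 1 to 3 lower, 2 to 4 assembly or RAVE genes were lower and 1 to 2 proteases were lower. Over all genes 1101 to 1274 were higher in those fits, against 1384 with all arrays, and 1176 to 1401 lower, against 1562. The VPH1 minus STV1 difference ranged from -0.0791 to 0.168 in those fits, with the negative value without control replicate 3. The cause of these changes was not tested.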
